A study of Mus musculus with 9 samples.

Results

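Axon guidance ligands and receptors were taken by symbol from the protein-coding genes of GENCODE vM21, the annotation of mouse build GRCm38 (mm10). They are the semaphorins, plexins, neuropilins, ephrins, Eph receptors, netrins, Dcc, Neo1, Unc5 genes, Slits and Robos, 72 of 21951 protein-coding genes. Each gene was given the differentially methylated regions (DMRs) of the deposited table that overlap its body or the 1000 bp upstream, which yielded 59 of the 12949 DMRs in 34 of the 72 genes. The symbols also take in Unc50 and Unc5cl, which are not netrin receptors. The mice were C57/Bl6 males, and the 2 groups were control littermates and pups exposed to modified maternal separation (MMS), held apart from the dam and repeatedly turned onto their backs for 1.5 h daily on postnatal days 4 to 6. The hypothalamus was dissected on postnatal day 6, and DNA of 10 mice per group was pooled into 3 libraries per group. Methylated DNA immunoprecipitation (meDIP) pulls down DNA with an antibody to methylated cytosine, and read numbers depend both on how methylated a region is and on how many CpG sites it has. The values below are the authors' group means, as log2 of normalised reads. No spread between pools can be given with them, and no difference between groups was tested here. The table holds only regions that the authors placed at a false discovery rate of 0.05 or lower. Whole hypothalamus was used, so a change of methylation within cells and a change in the mix of cells cannot be told apart.

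Growing axons are steered by attractive and repulsive proteins that are secreted or held on cell membranes. Semaphorins act through plexins, with neuropilins as co-receptors for the secreted class 3 semaphorins. Ephrins signal by cell contact to Eph receptor tyrosine kinases. Netrins attract through Dcc and repel through Unc5 receptors, and Slits repel through Robo receptors. In the hypothalamus these cues are known for guiding gonadotropin-releasing hormone neurons and the axons that connect its nuclei.

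The reference sequence (GRCm38, plus strand) shows what the assay read in these genes. One stretch is given for the DMR with the largest difference in the leading gene of each class, the gene with the most DMRs or, in a tie as among the semaphorins, the one with the largest difference. The DMR in a promoter is shown too. Each line is the 160 bp of the DMR with the most CpG sites, and capitals mark CpG sites.
Ntn1 intron, chr11:68373731-68373890: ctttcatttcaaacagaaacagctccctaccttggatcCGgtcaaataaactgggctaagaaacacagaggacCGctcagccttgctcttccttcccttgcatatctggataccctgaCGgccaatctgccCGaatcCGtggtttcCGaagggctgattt
Slit3 intron, chr11:35389793-35389952: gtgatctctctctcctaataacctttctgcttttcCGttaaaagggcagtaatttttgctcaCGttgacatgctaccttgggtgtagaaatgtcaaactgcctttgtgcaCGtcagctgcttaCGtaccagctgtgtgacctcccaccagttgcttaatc
Sema4d intron, chr13:51750904-51751063: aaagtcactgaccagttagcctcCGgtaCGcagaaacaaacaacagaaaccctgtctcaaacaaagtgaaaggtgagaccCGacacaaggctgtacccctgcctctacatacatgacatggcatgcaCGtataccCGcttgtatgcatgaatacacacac
Plxna4 intron, chr6:32422118-32422277: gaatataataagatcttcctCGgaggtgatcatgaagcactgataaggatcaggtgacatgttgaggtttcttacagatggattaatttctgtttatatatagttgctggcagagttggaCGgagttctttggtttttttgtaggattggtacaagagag
Efna5 intron, chr17:62633173-62633332: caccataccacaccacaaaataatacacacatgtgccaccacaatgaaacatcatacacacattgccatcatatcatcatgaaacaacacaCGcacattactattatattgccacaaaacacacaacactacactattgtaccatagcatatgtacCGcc
Ephb1 intron, chr9:102168369-102168528: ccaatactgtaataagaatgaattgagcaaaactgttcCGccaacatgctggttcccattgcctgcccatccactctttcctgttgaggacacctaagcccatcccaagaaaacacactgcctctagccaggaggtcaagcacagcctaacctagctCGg
Plxnd1 promoter, chr6:115995216-115995375: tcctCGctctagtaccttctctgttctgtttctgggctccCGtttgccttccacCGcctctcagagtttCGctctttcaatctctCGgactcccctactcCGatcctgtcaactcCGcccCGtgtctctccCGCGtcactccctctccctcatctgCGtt
The Plxnd1 stretch holds 11 CpG sites, that of Ntn1 6, Sema4d 5, Slit3 4, and those of Plxna4, Efna5 and Ephb1 2 each.

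A DMR was found in 34 of the 72 genes (47.2%), where 19.3% of all protein-coding genes had at least 1. Axon guidance genes are long, with a median of 51.5 kb against 17.4 kb for all protein-coding genes, and a longer gene offers a DMR more places to fall. Per Mb of gene they held 4.88 DMRs, and all protein-coding genes 6.05. Lengths were summed over genes without the 1000 bp upstream, and bases shared by genes count more than once. By length class, 7 of 24 members from 10 to 30 kb had a DMR (29.2%, against 13.2% of all genes of that length), and 12 of 18 from 100 to 300 kb (66.7% against 57.4%). Over 300 kb the order was the other way, with 10 of 15 members (66.7%) against 79.9%. With the share of all genes in each length class, 28.1 members would have a DMR. The 5 longest members without one were Sema6d (578 kb), Unc5d (573 kb), Sema3a (477 kb), Epha5 (363 kb) and Slit2 (325 kb).

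**Figure D1:**
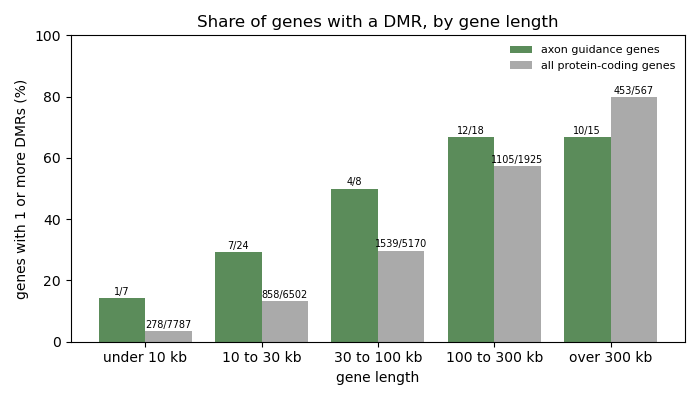
Bars give the percent of genes with 1 or more DMRs (y axis) in 5 classes of gene length (x axis), for axon guidance genes (green) and all protein-coding genes (grey), with the counts above each bar. The green bar is the taller one up to 300 kb, and above it the order turns, at 66.7% against 79.9%.

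The mean was higher in MMS in 31 of the 59 DMRs (52.5%), and in control in 28. The share higher in MMS was 62.6% in the whole table and 62.1% in the 6498 DMRs of protein-coding genes. The 95% Wilson interval of the members' share, which treats DMRs as independent and covers counting error only, runs from 40.0% to 64.7%. Genes with a DMR higher in MMS numbered 24 of 72 (33.3%, against 13.6% of all protein-coding genes). Genes with one higher in control numbered 20 (27.8%, against 9.13%), and 10 genes had both (13.9%, against 3.47%). These shares are not adjusted for gene length, and the members' median of 51.5 kb stood against 17.4 kb in all protein-coding genes. Slits had 7 of 9 DMRs higher in control, and netrins had 4 of 5 higher in MMS. Slit3 alone held 5 of those 7, the netrin count rests on Ntn1 and Ntn4, and the contrast was not tested. Counting all ligands together, 11 of 25 DMRs were higher in MMS, and among all receptors, Unc5cl not counted, 19 of 32.

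**Figure D2:**
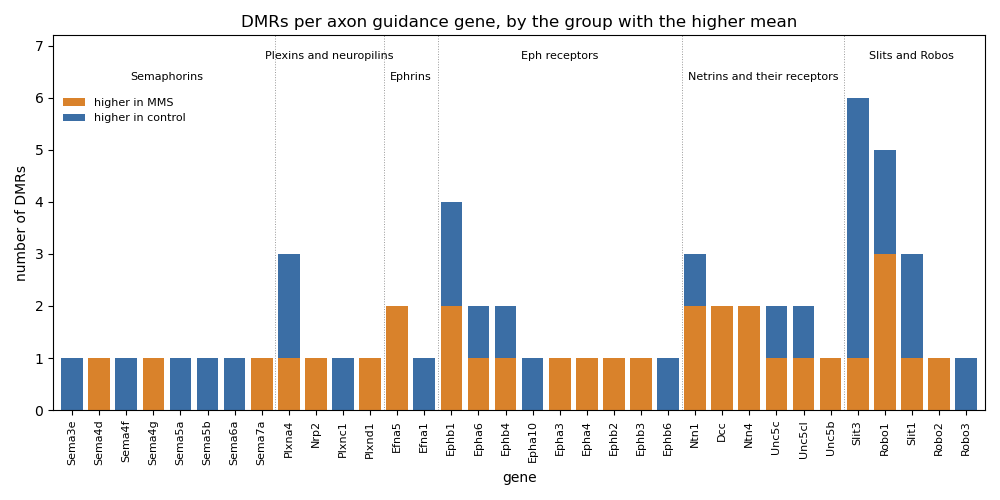
The y axis counts DMRs in each of the 34 genes that have any (x axis, by class), split into those higher in MMS (orange) and those higher in control (blue). Slit3 has the most with 6, of which 5 are blue, and Robo1 follows with 5.

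Control and MMS values differed in kind between the directions. In the 31 DMRs higher in MMS the control mean lay between -0.17 and 3.47 with a median of -0.17, and the MMS mean between 3.23 and 5.43 with a median of 3.95. A value of -0.17 is the lowest that the table lists for control, equal to 0.889 normalised reads, and 17 of these 31 DMRs stand at it (54.8%, against 50.3% near it in all protein-coding genes). The size of a difference against that value depends on where the authors' processing set it, so no fold is given for such a DMR. Some folds given below also rest on few reads, with lower means of 2.06 (Epha6), 2.48 (Slit3) and 3.20 (Sema4d) normalised reads. In the 28 DMRs higher in control the control mean ran from 3.83 to 6.47 with a median of 5.25, and the MMS mean from -0.24, the lowest value of that group, to 5.66 with a median of 3.59. Of these 28 DMRs 1 stood at the lowest value (3.57%, against 3.90% near it in all protein-coding genes). Without the 18 DMRs at a lowest value, 14 of 41 were higher in MMS (34.1%). Of the 18 left out 17 were higher in MMS, and a DMR with control at its lowest value can hardly be anything else. The fall from 52.5% to 34.1% therefore follows from the choice of DMRs. The same choice left 45.9% higher in MMS in all protein-coding genes, and the gap between members and all genes was not tested. All 9 DMRs with both means at 4 or more were higher in control, where 16.3% of such DMRs in protein-coding genes were higher in MMS. No member DMR higher in MMS had a control mean above 3.47, so none could pass this limit.

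**Figure D3:**
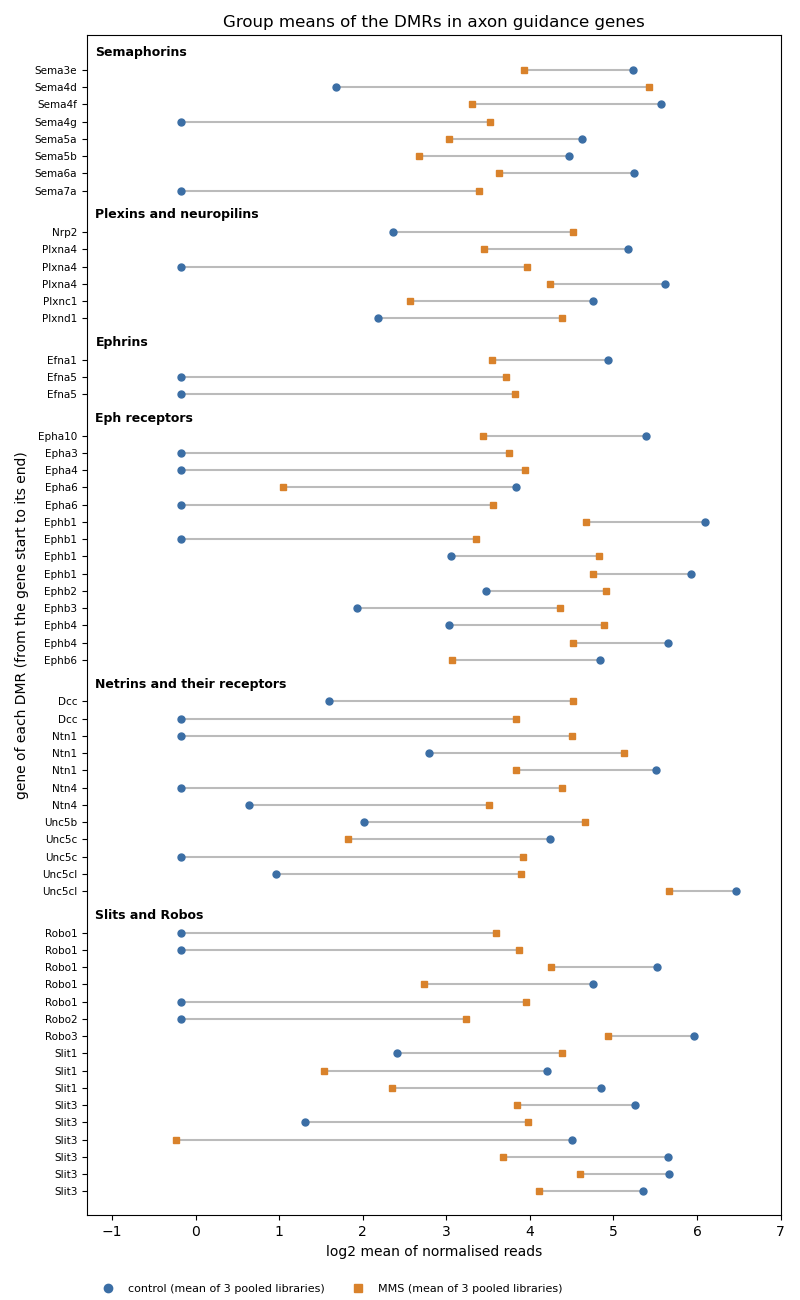
Each row is 1 DMR, named by its gene and grouped by class, and the x axis is the log2 mean of normalised reads. Blue circles are control and orange squares MMS, each the mean of 3 pooled libraries; 17 blue circles stand at -0.17 and 1 orange square at -0.24.

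Slits, the secreted repellents of the midline, and their Robo receptors held 16 DMRs in 5 of 7 genes, 6 higher in MMS and 10 in control. Slit3 had 6 DMRs, the most of any member, all in introns 3 and 4. At chr11:35389784-35389961 in intron 4 control was at 4.50 and MMS at -0.24, its lowest value. Further DMRs of that intron lie close by and had the same direction, at chr11:35394985-35395353 (5.65 in control, 3.68 in MMS) and chr11:35414640-35414905 (5.67 and 4.60). The DMR at chr11:35488323-35489889 (5.35 and 4.11) and that in intron 3 at chr11:35230224-35230579 (5.26 and 3.85) were also higher in control. Between them at chr11:35272538-35273619 lies the single Slit3 DMR higher in MMS, 6.36-fold, with 1.31 in control and 3.98 in MMS.

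Slit1 showed the same mix. Its DMR nearest the start, 8.60 kb into the gene in intron 1, was higher in MMS (2.41 in control, 4.38 in MMS). The others, in intron 4, were higher in control, 6.32-fold at chr19:41709738-41710318 (4.20 and 1.54) and 5.66-fold at chr19:41656540-41656861 (4.85 and 2.35). Slit2 had no DMR. Robo1, a Slit receptor, had 5 DMRs, and control was at its lowest value in the 3 that were higher in MMS (MMS means 3.59, 3.87 and 3.95). The remaining DMRs of Robo1, in intron 2, were higher in control (5.52 and 4.25, and 4.75 and 2.73). Robo2 had 1 intronic DMR higher in MMS (-0.17 and 3.23). Robo3, which commissural axons use in crossing the midline, had 1 DMR over its exon 5 with high reads in both groups (5.96 in control, 4.94 in MMS). Robo4, the endothelial member, had none.

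**Figure D4:**
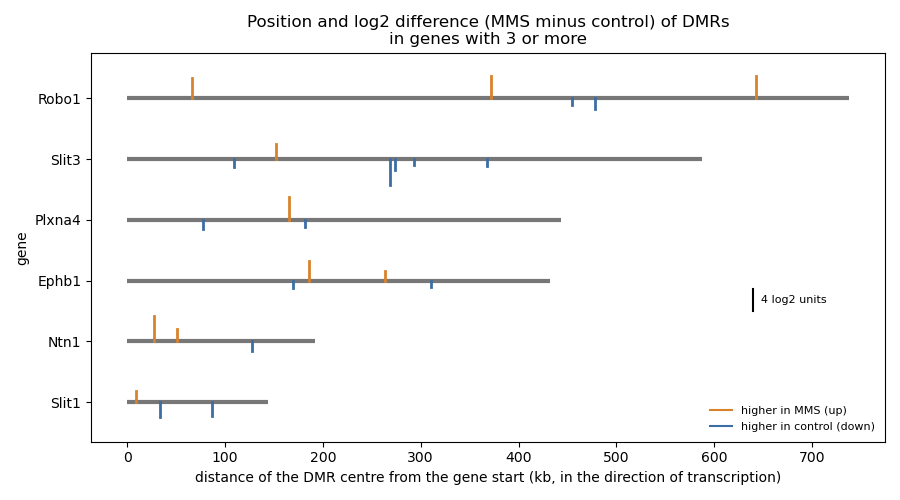
For the 6 genes with 3 or more DMRs, the x axis is the distance from the gene start in kb and grey bars span the gene. Vertical strokes mark DMRs, up in orange where higher in MMS and down in blue where higher in control, with the length giving the log2 difference (scale bar, 4 log2 units); every one of the 6 genes has strokes both ways.

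Netrins and their receptors, Unc50 and Unc5cl not counted, held 10 DMRs in 5 of 10 genes, 8 of them higher in MMS. Ntn1, the classical attractant of commissural axons, had a DMR at chr11:68372954-68374497 in intron 3 with control at its lowest value of -0.17 and MMS at 4.50. A second DMR of the same intron, at chr11:68349010-68350077, was 5.06-fold higher in MMS (2.79 and 5.13). The third, in intron 4 at chr11:68272598-68273461, was 3.20-fold higher in control (5.51 and 3.83). Ntn4, a netrin of basement membranes, had DMRs in introns 2 and 3, both higher in MMS (-0.17 and 4.39, and 0.64 and 3.51). The first of these also lies in Gm15915, an antisense gene.

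Dcc, the attractive netrin receptor, is the longest member at 1097 kb and had 2 DMRs. In its intron 1 the means were 1.59 in control and 4.52 in MMS, and in intron 9 they were -0.17 and 3.83. Among the repulsive Unc5 receptors, Unc5b had a DMR 6.23-fold higher in MMS in its last intron (2.02 and 4.66). Unc5c had one DMR in each direction, in intron 1 (4.24 in control, 1.82 in MMS) and intron 4 (-0.17 and 3.92). Unc5a, Unc5d, Neo1, Ntn3, Ntn5 and Unc50 had none. Unc5cl, which is no netrin receptor, had a DMR that spans its start and is centred 0.110 kb past it, just outside the promoter limit (0.96 and 3.89). It also had the highest mean over all libraries of any member DMR, 6.12, at chr17:48538380-48539569, near the end of a long annotated transcript (6.47 in control, 5.66 in MMS).

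Eph receptors held 14 DMRs in 9 of 14 genes, 8 higher in MMS and 6 in control. All 5 EphB receptors, the main receptors of ephrin-B ligands, had at least 1, for 9 DMRs over 0.683 Mb. Of the 9 EphA receptors, 4 had one, for 5 DMRs over 2.04 Mb. That is 13.2 DMRs per Mb for EphB and 2.45 for EphA receptors, where all protein-coding genes held 6.05, and 19.3% of those had at least 1. The difference between these small groups was not tested. No ephrin-B ligand had a DMR. Ephb1 had 4, in introns 3 and 4. In the DMR nearest the start, control was at 6.10 and MMS at 4.67. The DMR at chr9:102168358-102168528 was higher in MMS (-0.17 and 3.35), as was that at chr9:102091252-102091916 (3.05 and 4.83). The last, at chr9:102043340-102044332, was higher in control (5.93 and 4.75).

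Ephb4 had the closest neighbours of opposite direction among the members, 3.66 kb apart. One, at chr5:137366260-137367643, covers 248 bp of coding sequence and was 3.63-fold higher in MMS (3.03 and 4.89). The other, centred on exon 15 at chr5:137371301-137372951, was 2.20-fold higher in control (5.65 and 4.51). Ephb2 and Ephb3 each had 1 DMR in intron 1, both higher in MMS (3.47 and 4.91, and 1.93 and 4.36). Ephb6, which lacks kinase activity, had 1 DMR on exon 7 that was higher in control (4.84 and 3.07).

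Of the EphA receptors, Epha6 had a DMR at the 3′ end, in the 3′ UTR at chr16:59653569-59653978, with control at -0.17 and MMS at 3.56. This DMR also lies in 4930547E14Rik, a noncoding gene. The second Epha6 DMR, in intron 14 at chr16:59716797-59716952, was 6.92-fold higher in control (3.83 and 1.04), with 98.7% of its length soft-masked as repeat. Epha3 (-0.17 and 3.75) and Epha4 (-0.17 and 3.94) had 1 intronic DMR each, with control at its lowest value. Epha10 had 1 that was higher in control (5.39 and 3.44). Epha1, Epha2, Epha5, Epha7 and Epha8 had none. Of the 8 ephrins, Efna5, a ligand anchored in the membrane by a lipid, had 2 intronic DMRs, both from -0.17 in control, to 3.71 and 3.82 in MMS. Efna1 had 1 in intron 1, higher in control (4.93 and 3.55). Efna2, Efna3, Efna4, Efnb1, Efnb2 and Efnb3 had none.

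Semaphorins held 8 DMRs in 8 of 20 genes, with no gene holding 2, and 5 of them were higher in control. Of the 7 secreted class 3 genes only Sema3e had one, in intron 4, with 5.23 in control and 3.93 in MMS. Sema4d, a membrane-bound semaphorin that signals through Plxnb1, had a difference of 3.75 at chr13:51750775-51751988, with means of 1.68 in control and 5.43 in MMS, 13.5-fold. That is the highest MMS mean among the DMRs higher in MMS. Sema4g (-0.17 and 3.52) and the lipid-anchored Sema7a (-0.17 and 3.39) were also higher in MMS. Sema4f was 4.79-fold higher in control (5.57 and 3.31). Sema5a (4.62 and 3.03), Sema5b (4.47 and 2.67) and Sema6a (5.25 and 3.63) followed the same direction, each in intron 1. The other 6 class 3 genes had none, nor did Sema4a, Sema4b, Sema4c, Sema6b, Sema6c or Sema6d.

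Plexins and neuropilins held 6 DMRs in 4 of 11 genes, 3 in each direction. Plxna4, a plexin that partners with neuropilin-1 in Sema3a signalling, had 3. Control was at -0.17 and MMS at 3.97 at chr6:32421955-32422879 in intron 3. In the same intron, 15.1 kb away, a DMR was higher in control (5.62 and 4.24), as was one in intron 2 (5.18 and 3.45). Plxnc1, the Sema7a receptor, had 1 that was 4.56-fold higher in control (4.76 and 2.57). Nrp2, a co-receptor for class 3 semaphorins, had 1 that was 4.44-fold higher in MMS (2.36 and 4.51). Plxnd1, the Sema3e receptor, had the only DMR of the family centred in a promoter, at chr6:115995176-115995376, 0.271 kb before the GENCODE start. The RefSeq start of Plxnd1, at chr6:115995339, lies within this DMR. The DMR was 4.63-fold higher in MMS (2.18 and 4.39), with 5.97 CpG per 100 bp, the most of any member DMR. Nrp1, Plxna1, Plxna2, Plxna3, Plxnb1, Plxnb2 and Plxnb3 had none. Plxna3, Plxnb3 and Efnb1 are the 3 members on chromosome X.

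By position, 54 of the 59 DMRs (91.5%) were centred in introns, 3 on coding exons, 1 in a 3′ UTR and 1 in a promoter. These shares were not computed for the DMRs of all protein-coding genes, so they cannot be read as particular to the members. The coding exons were those of Robo3, Ephb4 and Ephb6, and these 3 DMRs were higher in control. Coding sequence also lay in the Ephb4 DMR that was higher in MMS, 4 in all, and some exon sequence in 7 DMRs. Along the gene, 12 DMRs lay in the first 25% of its length, 18 from 25 to 50%, 18 from 50 to 75% and 10 beyond. Those higher in MMS were 8 of 12, 9 of 18, 6 of 18 and 7 of 10 in that order, with no steady rise or fall along the gene. Over all protein-coding genes the share in these stretches lay between 60.0% and 63.2%. No test was made of these counts.

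Width and base composition were near those of other genic DMRs. The median width was 524 bp against 562 bp in protein-coding genes, and the median GC content 48.4% against 48.2%. CpG sites were present at a median of 1.31 per 100 bp against 1.43, and their number ran from 0 to 41 per member DMR. Soft-masked repeat made up a median of 11.9% against 16.4%. By direction, the median was 1.25 CpG per 100 bp in member DMRs higher in MMS and 1.35 in those higher in control. With 2 or more CpG per 100 bp, 7 of 16 were higher in MMS, and with under 1, 10 of 17. After the Plxnd1 promoter, the highest densities belonged to Ephb6 (3.36 per 100 bp) and the repeat in Epha6 (3.21).

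Within single genes the directions were mixed. Of 13 members with 2 or more DMRs, 10 had both directions (76.9%, against 57.3% of such protein-coding genes), and this held for all 6 members with 3 or more (77.3% of such protein-coding genes). Efna5, Dcc and Ntn4, each with 2, were higher in MMS throughout. Of 25 pairs of neighbouring DMRs within a gene, 11 shared a direction (44.0%, against 54.4% in all protein-coding genes). DMRs of 1 gene share its sequence and libraries and are not independent.

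The 1000 bp limit upstream left out 4 DMRs that overlap the 5000 bp upstream, that of Efna1 by its edge alone. These belong to Plxna4 (-0.17 in control, 3.80 in MMS), Ntn5 (-0.17 and 4.26), Sema4g (2.68 and 4.65) and Efna1 (2.96 and 4.74), and all were higher in MMS, as was the Plxnd1 DMR, the one member DMR centred upstream of its gene and inside the limit. For Ntn5 it would be the first DMR. Of all DMRs 62.6% were higher in MMS, and of those in protein-coding genes 62.1%. The share was not computed for upstream DMRs of all protein-coding genes. The shared direction of these few DMRs was not tested and cannot be read as particular to upstream positions.

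Of 60 other cues, co-receptors and downstream proteins of these pathways, 23 had a DMR (38.3%, against 19.3% of all protein-coding genes), but these 60 genes are long, with a median of 110.0 kb, and held 7.16 DMRs per Mb against 6.05. Of their 64 DMRs 45 (70.3%) were higher in MMS, against 62.1% in all protein-coding genes, and no test was made of either share. The guanine nucleotide exchange factor Kalrn had 9 (6 higher in MMS), Dock1, an activator of Rac, 8 (6), Srgap1, a GTPase-activating protein that binds Robo, 7 (6), and the receptor kinase Met 5 (4). Farp1, a guanine nucleotide exchange factor, had 3, all higher in control, and Mical3 had 2 of the same direction. Draxin, a netrin-binding cue, and the netrin receptor Dscam each had 2, all higher in MMS. Neither Rgma nor Rgmb, ligands of Neo1, had one.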

How the data were processed

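The authors used Torrent Suite to align Ion Proton reads to mm10, MACS2 (2.1 per the labels) to call broad peaks over inputs, and DiffBind with DESeq2 to compare 3 control with 3 MMS libraries. Their methods name the human genome size for MACS2. The deposited log2 values are the authors' means of normalised reads over all libraries, the control group (column named untreated) and the MMS group (treated). Columns with the authors' own difference, p-value and false discovery rate were not used. Inputs and IgG were not analysed here. The methods give total reads per library as a range, but the reads of each library behind a value were not at hand, and intervals cover counting error only.

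Differences are MMS minus control of the group means. A DMR belonged to a gene with 1 bp or more of overlap. Feature was read at the DMR centre from that gene's transcripts, promoter (1000 bp upstream to 100 bp downstream of a start) before UTR, coding exon and intron. Intron and exon numbers follow the transcript with the longest coding sequence. A group mean within 0.5 of its lowest value counted as near it. Chromosome lengths of GRCm38 held every DMR. The overlap code was tested on simulated data. No test between groups was made, so the planned limma fit was not run. Members and lists were chosen with earlier results of these data known. Named were all genes with a DMR, with values for the gene with most DMRs in each class (ties by the larger difference), the 3 largest differences each way, the 3 highest means, the 3 densest in CpG, and promoter, exon and UTR DMRs. Values of other DMRs were added after they were seen. Python 3.11.15, numpy 2.4.6, pandas 2.3.3, pysam 0.24.0 and matplotlib 3.10.9 were used.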

Additional observations from a re-analysis of the deposited data

How the results depend on the processing

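Under 10 alternatives, the count of genes with a DMR stayed between 24 and 35 and never moved by over 1.5 times; these were other gene regions, assignment by centre, DMRs of other genes left out, minimum difference or width, lowest values left out, autosomes alone, Unc5cl left out and RefSeq genes. A minimum difference of 2 left 35 DMRs, with 77.14% higher in MMS (81.1% in all protein-coding genes). Leaving out group means near their lowest value left 34.15% higher in MMS and turned the median log2 difference from 1.78 to -1.27; all such DMRs but 1 were higher in MMS, so this alternative lowers the share by its construction. The 7 other alternatives under which the share was computed, RefSeq genes not among them, kept it between 51.72% and 55.56%. That median falls between opposite groups of differences. No paired analysis was possible because the table holds group means and no value per library, which also kept each pool from being left out in turn. The 3 pools per group and the lack of a value per library limit every value.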
